A study of Mus musculus with 19 samples.

Results

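The microRNAs numbered miR-297, miR-466, miR-467 and miR-669 come mostly from a dense array of hairpins inside 1 intron of the mouse gene Sfmbt2, on chromosome 2. They were taken here as every named microRNA with 1 of these 4 numbers, with all letters and both arms, which gave 47 of the 528 names measured. Some names carried identical values in all 19 libraries, and the 47 names held 39 distinct patterns of values. The sets with identical values were miR-297a*, miR-297b-3p and miR-297c*, then miR-466b-3p, miR-466c-3p and miR-466e-3p, and the pairs miR-466d-5p and miR-466n-5p, miR-467a and miR-467b, miR-467a* and miR-467d*, and miR-669a-3p and miR-669o-3p. Each set is counted once and named by its first member. Another 4 members differed from a relative by less than 10% of its reads (miR-466a-3p and miR-466p-3p from miR-466b-3p, miR-669p from miR-669a-5p, and miR-669b from miR-669m-5p), which leaves 35 patterns when these are also counted once. By number, miR-466 gave 15 distinct members, miR-669 gave 14, miR-467 gave 6 and miR-297 gave 4.

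A microRNA is cut from 1 or both arms of a hairpin, called 5p and 3p, and is loaded into an Argonaute protein such as Ago2, which it guides to messenger RNAs with matching sites. In older names an asterisk marks the arm that is found less often. The array lies in the gene of Sfmbt2, a Polycomb group protein, and expanded by repeated duplication in rodents. Sfmbt2 is imprinted, with expression from the paternal copy in the placental lineage, and the microRNAs of its intron are best known from placenta and embryonic stem cells rather than from the adult brain.

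In GENCODE M21, an annotation of the build GRCm38, 81 hairpins carry these 4 numbers. Of these, 71 lie within Sfmbt2, all on its strand, over 51.6 kb with 0 annotated Sfmbt2 exons between the first and the last. The remaining 10 lie elsewhere, among them 1 of 4 hairpins of miR-297a and 1 of 4 of miR-466f, whose values may therefore include reads from outside the array. The copy number differs among the letters: miR-669a has 12 hairpins, miR-467a has 10 and miR-466b has 8, while miR-467e, miR-669c and miR-467d have 1 each. A value given to a name with several copies is therefore a value for all copies that yield that sequence. The alignment was to mm9, so no positions from GRCm38 are given for the members.

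Some microRNAs with these numbers hold runs of alternating U and G, or of A and C. The RefSeq table (GRCm38.p6) matched 0 of the 47 names, so whether the members hold such runs was not checked. The runs are shown by 4 relatives with the same numbers that lie outside chromosome 2, and by both arms of miR-574. miR-574 is a hairpin of chromosome 5 with a similar run, and its arms were measured in these libraries. Sequences are written 5′ to 3′, and capitals mark UGUGUG or ACACAC.
miR-466i-3p: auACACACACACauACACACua
miR-466j: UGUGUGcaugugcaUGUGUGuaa
miR-467h: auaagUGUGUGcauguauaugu
miR-669n: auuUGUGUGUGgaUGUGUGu
miR-574-5p: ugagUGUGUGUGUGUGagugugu
miR-574-3p: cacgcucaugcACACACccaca
Either run, searched on the strand of the mature microRNA, was present in 39 of 1679 mature sequences in the table (2.32%). It was present in 8 of the 8 that carry 1 of the 4 numbers of the array, and these 8 are not among the 47 names. Such low-complexity sequence can align to several names, and the treatment of reads with several matches is unknown.

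The libraries were made from RNA of 19 to 24 nt bound to Ago2 in the brain of mice at postnatal day 56, with 3 libraries for each of 5 groups and 2 for each of 2. Antibody against Ago2 itself was used on whole cerebellum (Cerebellum) and whole neocortex (Neocortex). Antibody against Myc was used where a Myc-tagged Ago2 was carried by 1 cell class: Purkinje cells of the cerebellum (Purkinje), Camk2a excitatory neurons of the neocortex (Camk2a), Gad2 inhibitory neurons (Gad2), and parvalbumin or somatostatin inhibitory neurons (PV and SST, 2 libraries each). By strain, the background was C57BL/6 & black swiss for Cerebellum and Purkinje, C57BL/6 & BALB/c for Neocortex and Camk2a, and C57BL/6 & 129 for Gad2, PV and SST. A library of Cerebellum, Neocortex or Camk2a used 1 tissue, one of Purkinje pooled 3, and one of Gad2, PV or SST pooled 4. Antibody thus differs between each whole tissue and its neuron classes and cannot be told apart from that difference. Pooling differs as well between Purkinje and Cerebellum, and pooling and strain background between Gad2 and either Neocortex or Camk2a, and these cannot be told apart from the group either. Neocortex and Camk2a share strain background and pooling, and PV, SST and Gad2 share antibody, strain background and pooling. The tagged Ago2 is an added protein, and the promoter that drives it is not named in the labels. Separate animals are not stated, so p-values measure only the spread between these libraries, which may be technical.

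Values are microRNA reads scaled to a library of 1000000 reads (RPM). Depth ran from 1229834 to 14249087 reads per library, so that 1 read was worth 0.0702 to 0.813 RPM. A count of 0 allows up to 3 reads, or 0.211 to 2.44 RPM. These limits, and the binomial intervals given later, hold for counting error alone, because amplified reads were not tagged by molecule and need not be independent. The summed level of 5 neuronal microRNAs (miR-124, miR-128, miR-9, miR-138 and miR-137) was 237802 to 439802 RPM across the libraries. Vascular markers were higher in whole tissue: the 3 vascular markers of 4 listed that were measured summed to 5810 to 6312 RPM in Cerebellum and 7841 to 8178 RPM in Neocortex, against 295 to 993 RPM in the 5 neuron classes.

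The array was a minor component of the Ago2-bound microRNAs in every group, at 0.00569% to 0.0406% of reads for its 39 distinct members together. The summed level was 406, 401 and 378 RPM in the 3 Cerebellum libraries and 228, 284 and 348 RPM in the 3 Neocortex libraries. It was 184, 136 and 117 RPM in Purkinje, 56.9, 67.4 and 75.95 RPM in Camk2a and 106, 82.9 and 151 RPM in Gad2. It was 164 and 177 RPM in PV and 184 and 165 RPM in SST. Every library of whole tissue was above every library of a neuron class, and every Camk2a library was below every library of the other groups. In order of the means the groups were Cerebellum (395 ± 14.8 RPM), Neocortex (286 ± 60.1 RPM), SST (174 ± 13.1 RPM), PV (170.3 ± 9.24 RPM), Purkinje (146 ± 34.1 RPM), Gad2 (114 ± 34.9 RPM) and Camk2a (66.8 ± 9.52 RPM), with SD over 3 libraries, or over 2 for PV and SST. The ranges of SST, PV and Purkinje overlapped, as did those of Purkinje and Gad2, so these neighbours did not differ beyond their spread. With near-identical members counted once the means were 328, 254, 147, 137, 133, 96.0 and 58.9 RPM in the same order. When each library was divided by its TMM scaling factor, the mean of SST was 118 RPM, of PV 179.9 RPM and of Cerebellum 441 RPM, so that SST stood below PV and below Purkinje (165 RPM). With that scaling whole tissue (219 RPM or more) was still above every neuron class (194 RPM or less), while the highest Camk2a library (76.3 RPM) was no longer below the lowest Gad2 library (76.2 RPM). Whole tissue holds many cell types, and in bulk samples fewer cells of a type and less RNA per cell cannot be told apart.

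**Figure D1:**
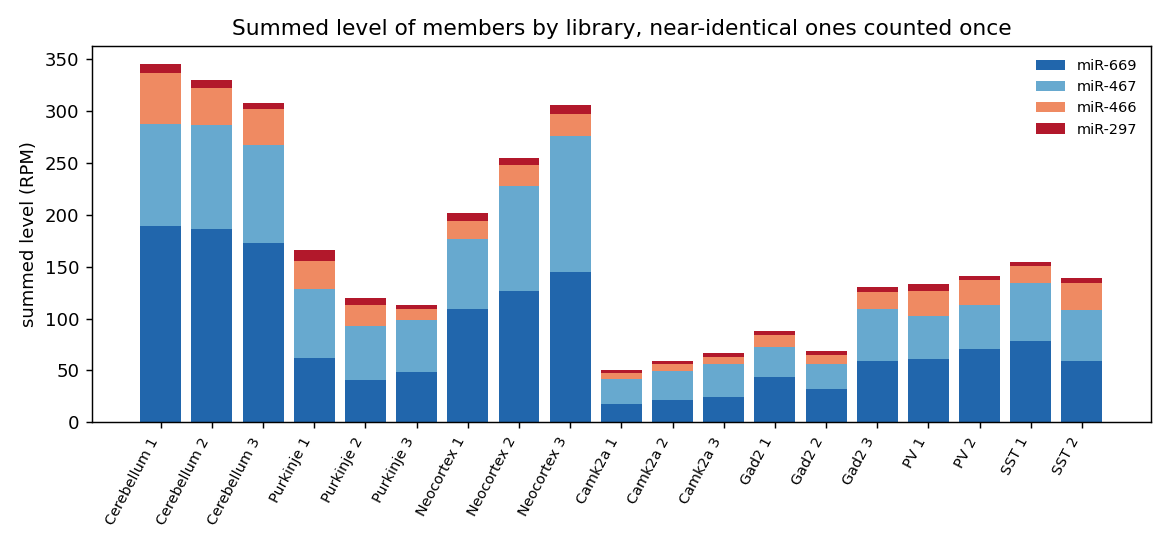
Summed level in RPM (y axis) of the 35 members left when near-identical ones are counted once, for each of the 19 libraries (x axis), stacked by microRNA number. The 3 Cerebellum and 3 Neocortex bars stand above the 13 bars of the neuron classes, and the 3 Camk2a bars are lowest, at 50.6 to 66.9 RPM.

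The 4 numbers did not contribute alike. Counted without near-identical members, miR-669 gave the highest sum in Cerebellum (183 ± 9.19 RPM) and in Neocortex (127 ± 17.8 RPM), and it was 50.4 ± 10.8 RPM in Purkinje and 20.9 ± 3.34 RPM in Camk2a. The miR-467 sum differed less between the 2 whole tissues, at 97.6 ± 2.78 RPM in Cerebellum and 100.0 ± 31.9 RPM in Neocortex, and was 56.3 ± 8.83 RPM in Purkinje. The miR-467 sum was above the miR-669 sum in all 6 libraries of Purkinje and Camk2a and below it in the other 13 libraries. The miR-466 sum ran from 6.34 ± 0.688 RPM in Camk2a to 39.97 ± 7.64 RPM in Cerebellum. The miR-297 sum stayed between 3.30 and 10.7 RPM in every library.

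Most members were rare. Of 39 distinct members, 5 averaged 10 RPM or more over the 7 groups, 15 averaged under 1 RPM, and the highest single value of any was 95.1 RPM. A total of 20 members were detected in all 19 libraries. The test across all names kept those with at least 1 RPM in 2 libraries, which were 478 of 528 names and 31 of the 39 distinct members. The 8 members it left out were miR-297b-5p, miR-466e-5p, miR-467a*, miR-467e*, miR-669a-3-3p, miR-669c*, miR-669m-3p and miR-669p*, with a mean of at most 0.446 RPM. Most of these are the less frequent arm of a hairpin whose other arm was among the more abundant members.

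**Figure D2:**
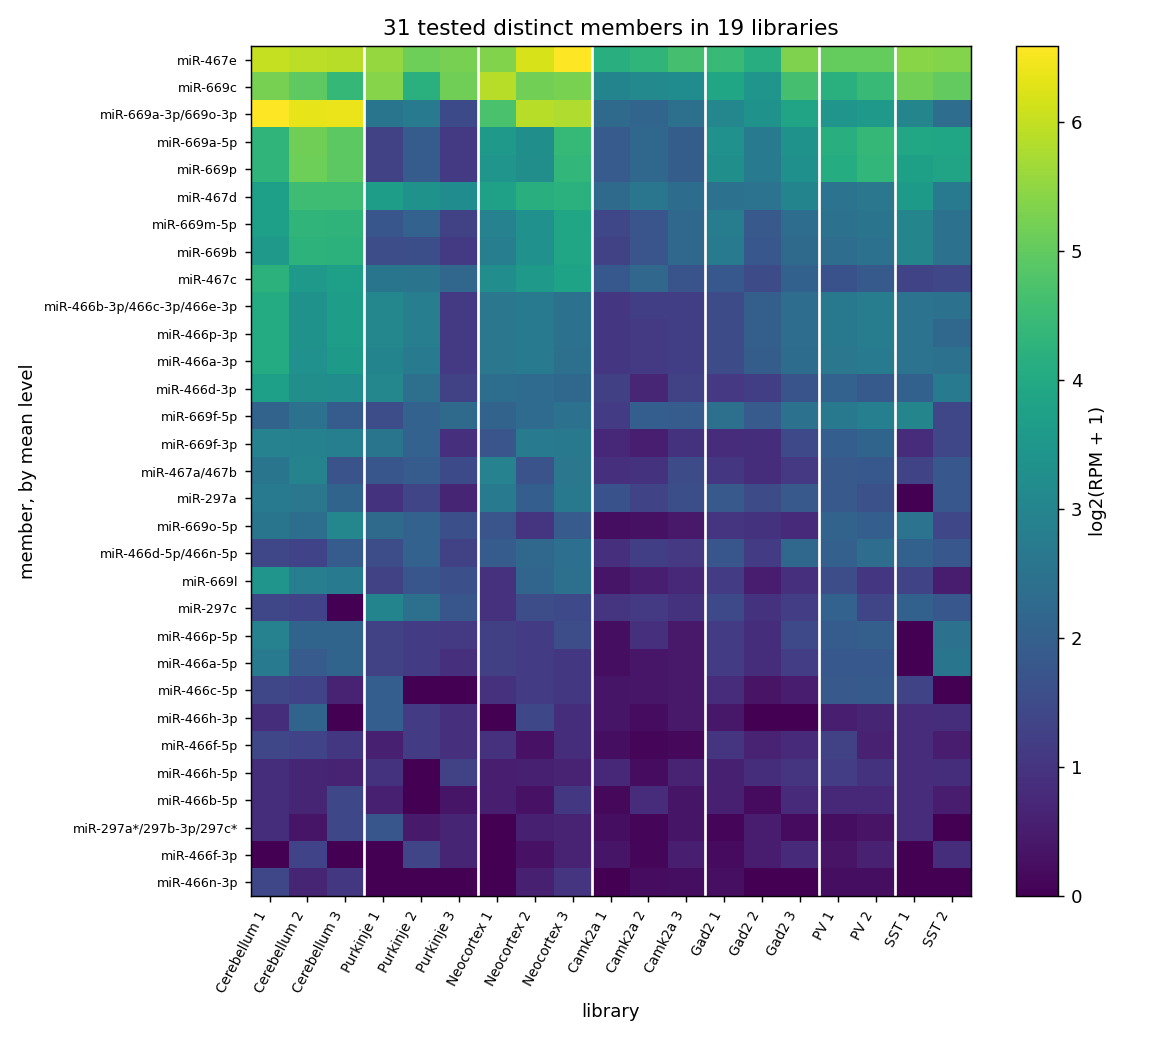
Level of the 31 distinct members tested (y axis, by mean level) in each of the 19 libraries (x axis), as log2(RPM + 1) on a colour scale, with white lines between groups. The top row, miR-467e, is bright in every column, and miR-669a-3p is bright in the 6 libraries of whole tissue and dark in Purkinje and Camk2a.

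The most abundant member was miR-467e, from a single hairpin, with a mean of 40.8 RPM over the 7 groups. It stood at 63.4, 59.8 and 57.8 RPM in Cerebellum, 46.05, 34.03 and 36.7 RPM in Purkinje and 39.6, 71.98 and 95.01 RPM in Neocortex. It stood at 16.98, 18.8 and 23.8 RPM in Camk2a, 20.98, 16.2 and 39.1 RPM in Gad2, 31.8 and 31.7 RPM in PV and 41.4 and 39.9 RPM in SST. The Neocortex libraries spread most widely, and the lowest of them fell below both SST libraries. No group lacked it, and its other arm, miR-467e*, gave at most 3 reads summed over the libraries of any group. The share of miR-467e in the array, with near-identical members counted once, ranged from a group mean of 18.4% in Cerebellum to 33.7% in Camk2a.

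The related miR-467d stood at 12.2, 22.2 and 22.2 RPM in Cerebellum, 11.6, 9.21 and 8.29 RPM in Purkinje and 12.6, 16.6 and 17.6 RPM in Neocortex. In the other neuron classes it was 3.88, 4.99 and 4.07 RPM (Camk2a), 4.49, 4.72 and 6.87 RPM (Gad2), 4.66 and 5.16 RPM (PV) and 10.9 and 5.70 RPM (SST). The 3 Purkinje libraries lay below all Cerebellum libraries, and the 3 Camk2a and 3 Gad2 libraries lay below all Neocortex libraries. For miR-467c the values were 17.9, 10.6 and 12.2 RPM in Cerebellum, 4.85, 4.80 and 3.55 RPM in Purkinje and 8.38, 10.7 and 13.2 RPM in Neocortex. In Camk2a, Gad2, PV and SST miR-467c stayed between 1.56 and 3.51 RPM. Both members were thus higher in each whole tissue than in the neuron classes taken from it.

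The second most abundant member was miR-669c, also from a single hairpin. It stood at 36.6, 29.8 and 20.02 RPM in Cerebellum, 41.2, 17.2 and 34.6 RPM in Purkinje and 57.7, 35.6 and 37.4 RPM in Neocortex. It stood at 6.79, 7.64 and 8.23 RPM in Camk2a, 13.8, 9.85 and 24.2 RPM in Gad2, 17.04 and 21.1 RPM in PV and 35.2 and 30.9 RPM in SST. Purkinje libraries overlapped those of whole cerebellum, and the 2 SST libraries fell within the range of the Purkinje libraries. Camk2a was the lowest group, with every library below every library of the others. The share of miR-669c in the array, with near-identical members counted once, was 23.3% in Purkinje and 22.5% in SST as group means, against 8.70% in Cerebellum.

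The arms of miR-669a, the name with the most hairpins, showed the largest differences between groups among the abundant members. The 3p arm, shared with miR-669o-3p, stood at 95.1, 80.8 and 82.8 RPM in Cerebellum and 25.1, 58.1 and 55.2 RPM in Neocortex. In the neuron classes it was 4.85, 5.61 and 1.78 RPM (Purkinje), 3.88, 3.43 and 4.35 RPM (Camk2a), 7.30, 9.17 and 13.5 RPM (Gad2), 9.87 and 10.6 RPM (PV) and 7.04 and 4.07 RPM (SST). The highest library of a neuron class was at 13.5 RPM and the lowest library of whole tissue at 25.1 RPM. The 5p arm stood at 18.7, 34.6 and 29.5 RPM in Cerebellum and 10.7, 8.78 and 20.3 RPM in Neocortex. In the neuron classes it was 1.45, 2.80 and 1.18 RPM (Purkinje), 2.72, 3.67 and 2.84 RPM (Camk2a), 9.05, 5.66 and 9.16 RPM (Gad2), 16.4 and 19.9 RPM (PV) and 14.1 and 13.8 RPM (SST). Unlike the 3p arm, the 5p arm in PV and SST lay within the range of Neocortex, while Purkinje and Camk2a were low for both arms. Nearly the same reads stood under miR-669p.

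**Figure D3:**
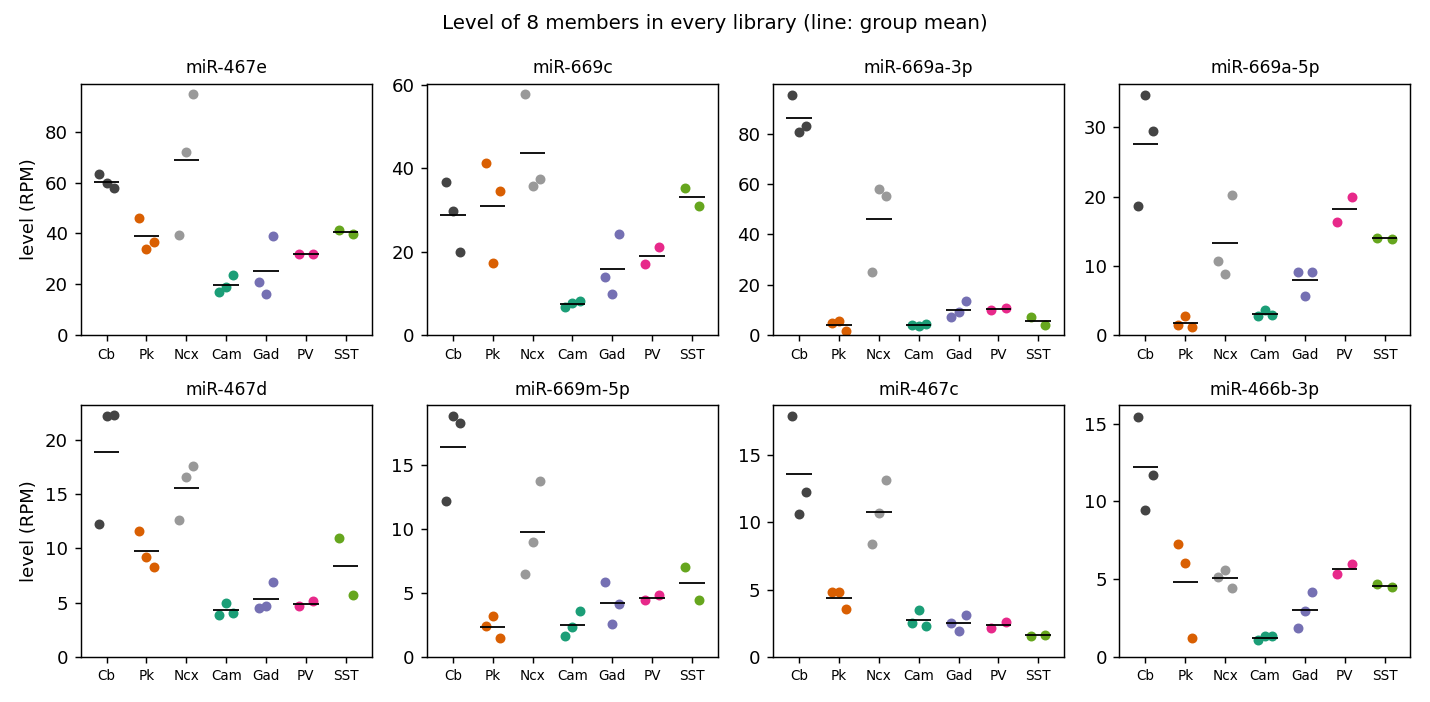
Level in RPM (y axis, with its own scale in each panel) of 8 members in every library (points), by group (x axis: Cb, Cerebellum; Pk, Purkinje; Ncx, Neocortex; Cam, Camk2a; Gad, Gad2; PV; SST), with the group mean as a line. miR-669a-3p is at 80.8 RPM or more in Cerebellum and at 5.61 RPM or less in Purkinje, whereas miR-669c overlaps between these groups.

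As the 2 arms of miR-669a come from the same hairpins, their balance was also taken within each library, as the 3p share of the reads of both arms with an exact 95% binomial interval. In Cerebellum it was 83.6% (76.4% to 89.3%), 70.0% (65.1% to 74.6%) and 73.8% (67.1% to 79.7%), and in Neocortex it was 70.1% (58.6% to 80.03%), 86.9% (82.3% to 90.6%) and 73.1% (69.9% to 76.1%). In PV it was 37.6% (31.9% to 43.5%) and 34.7% (29.7% to 39.9%), and in SST it was 33.3% (16.5% to 53.96%) and 22.7% (11.5% to 37.8%). The 3p arm thus gave most of the reads in each of the 6 libraries of whole tissue and the smaller part in each of the 4 libraries of PV and SST, and these intervals did not overlap. Camk2a (48.4% to 60.5%) and Gad2 (44.6% to 61.8%) lay between. In Purkinje the share was 60.0% to 76.9%, but over 10 to 21 reads a library, with intervals from 26.2% to 94.96%. The 3p reads are shared with miR-669o-3p and the 5p reads with miR-669p, so the share describes these sequences together and not 1 hairpin. No test was made on it.

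The less abundant miR-669f gave a 3p share of 58.3% to 68.8% in Cerebellum and 41.7% to 59.0% in Neocortex. In Camk2a it was 14.0% to 35.0% and in Gad2 14.9% to 27.3%, below every whole tissue library. PV gave 34.9% and 35.2%, SST 10.0% and 50.0%, and the Purkinje libraries scattered from 18.8% to 71.4% over 14 to 16 reads each. For miR-466d the 3p share was 75.0% to 88.2% in Cerebellum and 45.9% to 60.0% in Neocortex. These ranges did not overlap, but some libraries gave few reads. Cerebellum replicate 3 gave 15 reads of 3p and 5 of 5p, and Neocortex replicate 1 gave 9 and 6. The 5p reads are shared with miR-466n-5p, so the share describes these sequences together. For miR-467d, miR-467e, miR-669c, miR-669m and miR-669p nearly all reads came from 1 arm, and the other arm gave at most 7.69% in any library.

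**Figure D4:**
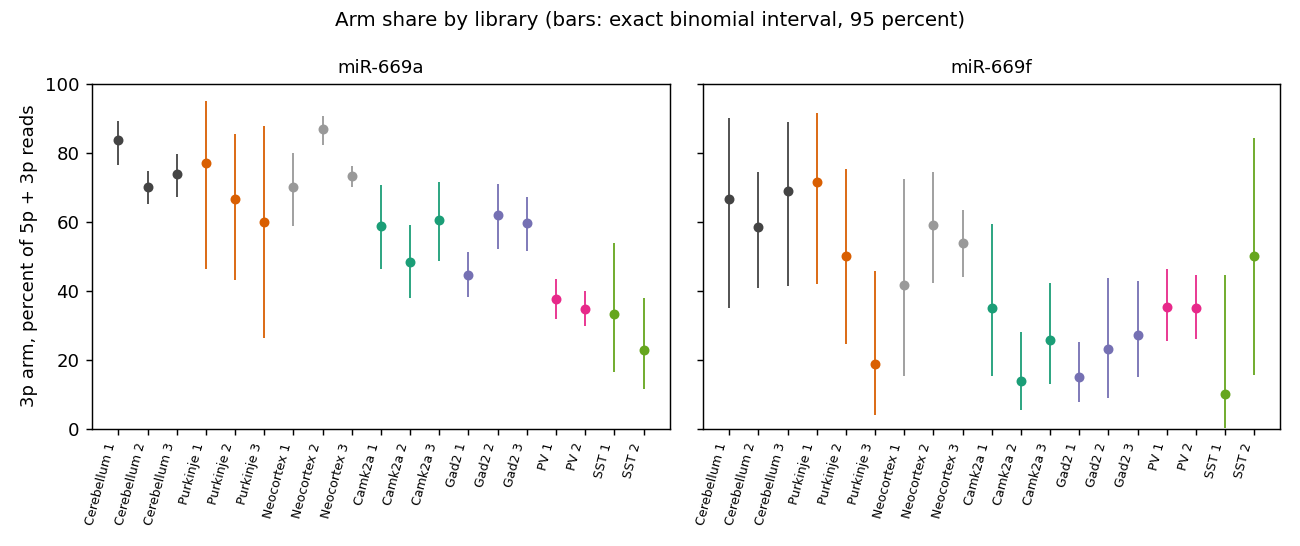
Share of the 3p arm in the reads of both arms (y axis, percent) for miR-669a and miR-669f in every library (x axis), with exact 95% binomial intervals as bars. For miR-669a the 6 whole tissue libraries lie at 70.0% or above and the 4 PV and SST libraries at 37.6% or below.

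Other members of the miR-669 group were lower. miR-669m-5p stood at 12.2, 18.8 and 18.3 RPM in Cerebellum, 2.42, 3.20 and 1.48 RPM in Purkinje, 6.51, 9.03 and 13.8 RPM in Neocortex and 1.65, 2.34 and 3.59 RPM in Camk2a. It stood at 5.83, 2.56 and 4.15 RPM in Gad2, 4.47 and 4.81 RPM in PV and 7.04 and 4.48 RPM in SST, and miR-669b followed it with nearly the same values. These 2 members were low in Purkinje and Camk2a, as both arms of miR-669a were. miR-669l was 9.76, 6.07 and 5.56 RPM in Cerebellum and 0.931, 3.42 and 4.35 RPM in Neocortex, and stayed between 0.291 and 2.40 RPM in the neuron classes. miR-669o-5p was 4.88, 4.25 and 7.23 RPM in Cerebellum, 3.88, 3.20 and 2.07 RPM in Purkinje and 0.194, 0.234 and 0.378 RPM in Camk2a. The 3p sequence of miR-669o cannot be separated from that of miR-669a, so the balance of the arms of miR-669o was not measured.

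The miR-466 members are the most numerous and among the least abundant. The highest, miR-466b-3p with its 2 identical names, stood at 15.4, 9.41 and 11.7 RPM in Cerebellum, 7.27, 6.01 and 1.18 RPM in Purkinje, 5.12, 5.61 and 4.45 RPM in Neocortex and 1.07, 1.33 and 1.32 RPM in Camk2a. It stood at 1.82, 2.97 and 4.15 RPM in Gad2, 5.31 and 5.95 RPM in PV and 4.69 and 4.48 RPM in SST. Camk2a libraries were below those of every other group except Purkinje replicate 3, which at 1.18 RPM stood apart from the other Purkinje libraries. miR-466d-3p was 12.2, 8.50 and 8.34 RPM in Cerebellum, 7.27, 4.40 and 1.48 RPM in Purkinje and 4.19, 3.90 and 3.61 RPM in Neocortex. In the other classes it was 1.36, 0.624 and 1.42 RPM (Camk2a), 1.12, 1.35 and 2.29 RPM (Gad2), 3.17 and 2.62 RPM (PV) and 3.13 and 5.70 RPM (SST). Purkinje replicate 3 was again the lowest of its group.

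Of the miR-297 members, miR-297c was the only tested member among the 31 that was called higher in Purkinje than in Cerebellum. It stood at 6.79, 4.40 and 2.37 RPM in Purkinje and 1.63, 1.52 and 0 RPM in Cerebellum, the last of which allows up to 3 reads. In Neocortex it was 0.931, 1.95 and 1.76 RPM, in Camk2a 0.97, 1.17 and 0.946 RPM, in Gad2 1.75, 0.944 and 1.29 RPM, in PV 3.17 and 1.57 RPM and in SST 3.13 and 2.44 RPM. These values rest on few reads, 33 over the 3 Purkinje libraries and 7 over the 3 Cerebellum libraries. Its relative miR-297a had the opposite order, at 0.969, 1.60 and 0.592 RPM in Purkinje and 5.69, 5.16 and 3.34 RPM in Cerebellum.

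Whole cerebellum held more of 6 of 14 tested miR-466 members and 5 of 10 tested miR-669 members than whole neocortex, and no miR-467 member was called. Of the 31 members tested, 11 were higher in Cerebellum and 0 lower, where 24.3% of all 478 names were higher and 40.8% lower (65.1% called in all). These counts include near-identical members. With those counted once, 8 of 27 were higher and 0 lower, so the share of higher members was near that of all names. The median log2 change was 0.50 over the members and -0.36 over all names. The miR-466 members that passed were both arms of miR-466a and miR-466p, miR-466b-3p and miR-466d-3p. miR-669a-5p averaged 27.6 ± 8.12 RPM (SD, n = 3) against 13.3 ± 6.16 RPM (SD, n = 3) (log2 change 1.04 ± 0.32 (SE), limma adjusted p = 0.0068). miR-466d-3p averaged 9.68 ± 2.18 RPM (SD, n = 3) against 3.90 ± 0.288 RPM (SD, n = 3) (log2 change 1.11 ± 0.35 (SE), limma adjusted p = 0.008). The other named members that passed were miR-669l (log2 change 1.15), miR-669o-5p (1.13), miR-669p (1.11) and miR-669a-3p (0.98). miR-467e had a log2 change of -0.10 and miR-669c, the most abundant miR-669 member over the 7 groups, one of -0.59, and neither passed. Markers of ependyma and choroid plexus (4 of 6 measured) summed to 1345 to 1840 RPM in Cerebellum and 66.6 to 98.3 RPM in Neocortex. The oligodendrocyte sum was also higher in Cerebellum, at 3362 to 3563 RPM against 2069 to 3278 RPM. Its miR-338-5p was lower there, at 84.5 to 99.9 RPM against 116 to 146 RPM. The vascular sum went the other way, at 5810 to 6312 RPM against 7841 to 8178 RPM. Of it miR-143 was lower in Cerebellum (1732 to 1800 RPM against 3984 to 4694 RPM), while both arms of miR-126 overlapped. Blood and microglial sums overlapped, at 2826 to 3295 RPM and 1811 to 4055 RPM, but their members differed in direction. Higher in Cerebellum were miR-150 (413 to 479 RPM against 147 to 205 RPM) and miR-486 (331 to 372 RPM against 19.5 to 24.2 RPM). Lower were miR-142-5p (22.8 to 31.7 RPM against 83.8 to 107 RPM), miR-142-3p and miR-223, while miR-451 and miR-144 overlapped. The part of these markers in the result was not tested. Without Cerebellum replicate 1 the count was 7, and miR-669a-3p had a limma adjusted p of 0.052 without that library and 0.141 without Neocortex replicate 1. Without Neocortex replicate 1 miR-669l had a log2 change of 0.71 (limma adjusted p = 0.0689).

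Purkinje cells held less of 7 of 10 tested miR-669 and 8 of 14 tested miR-466 members than whole cerebellum, while miR-669c, their second most abundant member, was not called. Of the 31 members tested, 18 were lower in Purkinje and 1 higher, where 40.0% of all names were lower and 34.3% higher (74.3% called in all). Over the members the median log2 change was -1.03, against -0.16 over all names. miR-669a-3p averaged 4.08 ± 2.03 RPM (SD, n = 3) in Purkinje and 86.3 ± 7.76 RPM (SD, n = 3) in Cerebellum, 21.2-fold apart (log2 change -4.20 ± 0.34 (SE), limma adjusted p = 1.12e-10). miR-669a-5p averaged 1.81 ± 0.867 RPM (SD, n = 3) and 27.6 ± 8.12 RPM (SD, n = 3), 15.2-fold apart (log2 change -3.35 ± 0.32 (SE), limma adjusted p = 1.78e-09). These 2 arms were the members with the largest change, and both passed in each of 27 other ways of processing. miR-669b and miR-669m-5p were 9.09-fold and 6.95-fold lower, and miR-467c 3.09-fold lower. For miR-669c the groups overlapped and the test did not pass (log2 change 0.06 ± 0.33 (SE), limma adjusted p = 0.879). miR-467e was lower in each Purkinje library than in any of Cerebellum but did not pass (log2 change -0.63 ± 0.30 (SE), limma adjusted p = 0.0617). It passed without Purkinje replicate 1 (adjusted p = 0.0492), Neocortex replicate 1 (0.037), Neocortex replicate 3 (0.049) or Gad2 replicate 3 (0.035), and with the replicate block (0.0488). miR-467d was 1.94-fold lower (log2 change -0.86 ± 0.29 (SE), limma adjusted p = 0.0116), with an adjusted p of 0.0547 without Cerebellum replicate 2 and 0.0529 without Cerebellum replicate 3. miR-297c rose 4.31-fold (log2 change 1.47 ± 0.35 (SE), limma adjusted p = 0.000623). Vascular markers, ependymal and choroid markers and 6 of 7 blood and microglial markers moved with these members. The sum of 3 vascular markers was 323 to 424 RPM in Purkinje and 5810 to 6312 RPM in Cerebellum. That of 4 ependymal and choroid markers was 10.7 to 17.4 RPM against 1345 to 1840 RPM, with miR-34b-3p at 0 in Purkinje. The oligodendrocyte sum differed less, at 2740 to 3248 RPM against 3362 to 3563 RPM. Its miR-219-5p overlapped, at 36.4 to 80.5 RPM and 32.25 to 62.6 RPM. The 7 blood and microglial markers summed to 1273 to 1585 RPM in Purkinje and 2826 to 3295 RPM in Cerebellum, but miR-486 went the other way, at 1236 to 1538 RPM in Purkinje and 331 to 372 RPM in Cerebellum, while miR-451 was at 33.1 to 47.2 RPM and 1885 to 2421 RPM. Their part in the result was not tested, and antibody and pooling cannot be told apart from the cell class.

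Camk2a excitatory neurons held less of members of all 4 numbers than whole neocortex. Of the 31 members tested, 19 were lower and 0 higher, where 31.8% of all names were lower and 19.5% higher (51.3% called in all). The median log2 change was -1.22 over the members and -0.22 over all names. By number, 9 of the 10 tested miR-669 members fell, the exception being miR-669f-5p. miR-669a-3p averaged 3.89 ± 0.46 RPM (SD, n = 3) in Camk2a and 46.1 ± 18.2 RPM (SD, n = 3) in Neocortex, 11.9-fold apart (log2 change -3.18 ± 0.34 (SE), limma adjusted p = 6.01e-08). miR-669c averaged 7.55 ± 0.723 RPM (SD, n = 3) and 43.6 ± 12.3 RPM (SD, n = 3), 5.77-fold apart (log2 change -2.35 ± 0.33 (SE), limma adjusted p = 3.27e-06). miR-467e averaged 19.9 ± 3.55 RPM (SD, n = 3) and 68.8 ± 27.9 RPM (SD, n = 3), 3.47-fold apart (log2 change -1.67 ± 0.30 (SE), limma adjusted p = 7.58e-05). The 4 tested miR-467 members were all lower, with log2 changes from -1.27 to -1.67. Of the miR-466 members 5 of 14 tested were lower, and of the miR-297 members 1 of 3, miR-297a. Blood and microglial markers moved with this comparison, with 7 of 7 summing to 45.1 to 54.1 RPM in Camk2a and 1811 to 4055 RPM in Neocortex (miR-486 alone was higher in Camk2a, at 32.5 to 37.1 RPM against 19.5 to 24.2 RPM), as did vascular markers at 934 to 993 RPM against 7841 to 8178 RPM. The 3 oligodendrocyte markers of 4 listed that were measured summed to 665 to 799 RPM in Camk2a and 2069 to 3278 RPM in Neocortex. The ependymal and choroid sums overlapped, at 66.98 to 92.98 RPM in Camk2a and 66.6 to 98.3 RPM in Neocortex. Their part in the result was not tested.

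Gad2 inhibitory neurons also held the array at a lower summed level than whole neocortex, and here the 5p arm of miR-669a was not called. Of the 31 members tested, 11 were lower and 0 higher, where 28.7% of all names were lower and 24.7% higher (53.3% called in all). The share of lower members was thus near that of all names. Members had a median log2 change of -0.63 and all names one of -0.06. miR-669a-3p averaged 9.98 ± 3.16 RPM (SD, n = 3) in Gad2, 4.62-fold below Neocortex (log2 change -2.05 ± 0.34 (SE), limma adjusted p = 2.35e-05). miR-467e averaged 25.4 ± 12.1 RPM (SD, n = 3) (log2 change -1.41 ± 0.30 (SE), limma adjusted p = 0.000376), and miR-467c 2.52 ± 0.631 RPM (SD, n = 3) (log2 change -1.73 ± 0.27 (SE), limma adjusted p = 1.04e-05). miR-669c was also lower (log2 change -1.45 ± 0.33 (SE), limma adjusted p = 0.000794). For miR-669a-5p the Gad2 libraries overlapped the Neocortex range (log2 change -0.61 ± 0.32 (SE), limma adjusted p = 0.114). Without Gad2 replicate 2 the count was 7, with miR-669m-5p and miR-669b among the calls lost. The Gad2 libraries carry the 129 background and pool 4 tissues, which cannot be told apart from the cell class here, and their marker sums were 295 to 354 RPM (vascular), 74.9 to 175 RPM (blood and microglia, of which miR-486 gave 57.3 to 153 RPM) and 679 to 731 RPM (oligodendrocytes). The ependymal and choroid sums overlapped, at 95.6 to 118 RPM in Gad2 and 66.6 to 98.3 RPM in Neocortex, but their members went opposite ways. miR-204 was lower in Gad2 (16.4 to 25.4 RPM against 50.3 to 67.6 RPM). miR-34c was higher (49.4 to 71.3 RPM against 10.2 to 20.6 RPM), as was miR-34b-5p. The part of these markers in the result was not tested.

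Between the 2 broad neuron classes of the neocortex, only miR-669 members passed. Of the 31 tested, 4 were higher in Gad2 than in Camk2a and 0 lower, where 23.8% of all names were higher and 19.5% lower (43.3% called in all), so the members' share was below the background. Over the members the median log2 change was 0.30, against 0.08 over all names. miR-669a-3p was 2.57-fold higher (log2 change 1.13 ± 0.34 (SE), limma adjusted p = 0.0103), miR-669a-5p 2.59-fold (log2 change 1.12 ± 0.32 (SE), limma adjusted p = 0.00694) and miR-669c 2.11-fold (log2 change 0.90 ± 0.33 (SE), limma adjusted p = 0.0313). The remaining one, miR-669p, shares its reads with miR-669a-5p. miR-467e overlapped between the classes (log2 change 0.26), and its 3 Gad2 libraries ran from 16.2 to 39.1 RPM. The count was 2 without Gad2 replicate 3 and 7 without Purkinje replicate 3, and 9 by edgeR and 10 by DESeq2 on the recovered reads. Without Gad2 replicate 3 the adjusted p was 0.058 for miR-669a-3p and 0.194 for miR-669c. The call of miR-669c was also lost with TMM scaling (adjusted p = 0.0511), with a pseudocount of 10 RPM (0.083), without Gad2 replicate 1 (0.0519) and without Camk2a replicate 1, 2 or 3 (0.0923, 0.0665 and 0.0534). The blood and microglial marker sum was 74.9 to 175 RPM in Gad2 and 45.1 to 54.1 RPM in Camk2a, with miR-486 at 57.3 to 153 RPM and 32.5 to 37.1 RPM, whereas the vascular sum was lower in Gad2 (295 to 354 RPM) than in Camk2a (934 to 993 RPM). The ependymal and choroid sum was 95.6 to 118 RPM in Gad2 and 66.98 to 92.98 RPM in Camk2a, but its members went opposite ways. miR-204 was lower in Gad2 (16.4 to 25.4 RPM against 50.4 to 78.9 RPM). miR-34c was higher (49.4 to 71.3 RPM against 8.25 to 12.2 RPM), as was miR-34b-5p. The oligodendrocyte sums overlapped, at 679 to 731 RPM in Gad2 and 665 to 799 RPM in Camk2a. The part of these markers in the result was not tested.

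PV and SST inhibitory neurons held the array at summed levels that overlapped (164 and 177 RPM in PV, 184 and 165 RPM in SST), and no member was called between them by limma. With TMM scaling the sums did not overlap, at 177 and 183 RPM in PV and 117 and 120.3 RPM in SST. With limma, 0 of the 31 tested passed, 2 had an unadjusted p under 0.05, and edgeR and DESeq2 on the recovered reads each called 1. Over all names 4.18% were higher in PV and 29.3% lower (33.5% called in all). The median log2 change was 0.25 over the members and -0.40 over all names, and scaling by TMM moved the median of all names by 0.51. With that scaling 4 members were higher in PV and 0 lower, and the share of all names called with it was not taken. The 2 with an unadjusted p under 0.05 were miR-466c-5p (log2 change 1.17, adjusted p = 0.0689) and miR-669f-3p (log2 change 0.92, adjusted p = 0.105). miR-669a-3p was 9.87 and 10.6 RPM in PV and 7.04 and 4.07 RPM in SST (log2 change 0.81 ± 0.42 (SE), limma adjusted p = 0.14), and its log2 change was 1.34 with TMM scaling (adjusted p = 0.00953). miR-467d and miR-669c had log2 changes of -0.60 and -0.77, and neither passed. The count was 1 without Purkinje replicate 1 or without Purkinje replicate 3, 2 without SST replicate 1 and 3 without SST replicate 2. The sum of the ependymal and choroid list was 117 to 135 RPM in PV and 418 to 421 RPM in SST. Of it miR-34c gave 75.4 to 95.6 RPM and 232 to 243 RPM, above Cerebellum (56.7 to 62.6 RPM). miR-204 gave 6.99 to 8.10 RPM and 127 to 129 RPM. The sum is therefore not read here as a measure of ependyma or choroid plexus. With 2 libraries a group, the spread was shared with the other groups, and a p above the threshold does not show that the classes are alike.

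The inhibitory classes Purkinje, of the cerebellum, and Gad2, of the neocortex, were compared directly. Of the 31 tested, 6 were higher in Purkinje and 4 lower, where 23.0% of all names were higher and 37.0% lower (60.0% called in all), so the members' share was below the background in both directions. With TMM scaling, which moved the median of all names by 0.14, 12 were higher and 3 lower. The share of all names called with that scaling was not taken, so these counts cannot be set against a background. The median log2 change was 0.20 over the members and -0.20 over all names. The lower ones were both arms of miR-669a, miR-669p and miR-669b. miR-669a-5p was 4.39-fold lower (log2 change -1.69 ± 0.32 (SE), limma adjusted p = 7.6e-05) and miR-669a-3p 2.45-fold lower (log2 change -1.17 ± 0.34 (SE), limma adjusted p = 0.00492). The higher ones were miR-297c (3.40-fold), miR-669o-5p (3.46-fold), miR-669c, miR-466d-3p, miR-467d and the rare miR-466h-3p. The 5p arm of miR-669o was thus higher in Purkinje while its 3p sequence, counted with miR-669a-3p, was lower. The count was 6 without Purkinje replicate 1 and also 6 without Gad2 replicate 1. miR-669c, miR-467d and miR-466d-3p were not called without either of these libraries, and miR-669b was not called by edgeR or DESeq2 on the recovered reads (adjusted p of 0.0632 and 0.0955). These classes also come from different strain backgrounds and brain regions, which cannot be told apart from the class. Marker sums in Purkinje and Gad2 were 1273 to 1585 RPM and 74.9 to 175 RPM (blood and microglia) and 2740 to 3248 RPM and 679 to 731 RPM (oligodendrocytes). Of the first sum miR-486 gave 1236 to 1538 RPM and 57.3 to 153 RPM, and miR-451 33.1 to 47.2 RPM and 8.07 to 15.0 RPM. The ependymal and choroid sum was 10.7 to 17.4 RPM and 95.6 to 118 RPM, of which miR-34c gave 4.004 to 4.735 RPM and 49.4 to 71.3 RPM. The vascular sums overlapped, at 323 to 424 RPM in Purkinje and 295 to 354 RPM in Gad2, as did miR-126-3p. miR-126-5p was higher in Purkinje (74.9 to 143 RPM against 40.3 to 61.5 RPM) and miR-143 lower (17.4 to 19.2 RPM against 32.6 to 42.8 RPM). The part of these markers in the result was not tested.

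**Figure D5:**
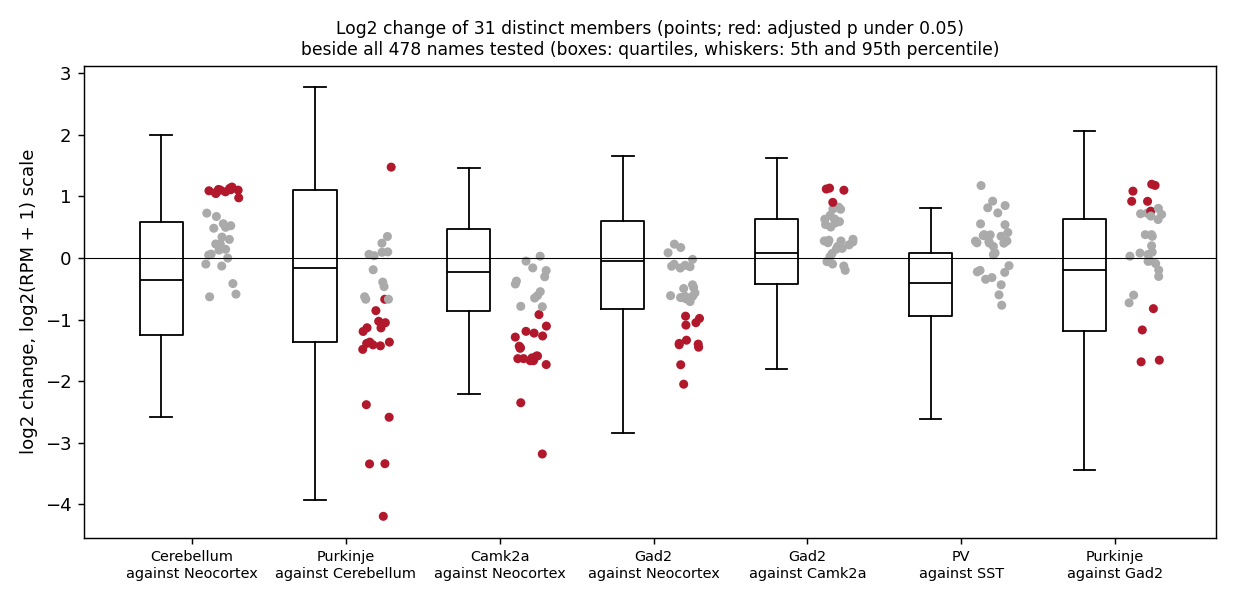
Log2 change on the log2(RPM + 1) scale (y axis) of the 31 distinct members (points, red where the limma adjusted p is under 0.05) in 7 comparisons (x axis), beside boxes for all 478 names tested (median and quartiles, whiskers at the 5th and 95th percentiles). Red points lie below 0 in Camk2a and in Gad2 against Neocortex, and 18 of 19 do so in Purkinje against Cerebellum.

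The 2 brain regions were also compared in how a neuron class differed from its whole tissue, by contrasts on the same fit chosen after the values were seen. The log2 change of Purkinje against Cerebellum minus that of Gad2 against Neocortex passed for 7 of the 31 members tested, 2 higher and 5 lower, where 27.4% of all names were higher and 23.8% lower (51.3% called in all). With Camk2a in place of Gad2 it passed for 6, 4 higher and 2 lower, where 29.1% of all names were higher and 23.0% lower (52.1% called in all). miR-669c was among the higher and miR-669a-5p among the lower in both contrasts. The members' shares called were below those of all names.

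Across the 7 groups, 24 of the 31 members tested showed some difference by the limma F test, against 95.2% of all names. Those not called were miR-297a*, miR-466b-5p, miR-466c-5p, miR-466f-3p, miR-466h-3p, miR-466h-5p and miR-669f-5p, mostly members with few reads. Cerebellum had the highest mean for 20 of the 31 and Camk2a the lowest for 20. Purkinje had the lowest mean for 7 and the highest for 4. These counts of highest and lowest means include near-identical members. They were not taken over all names, so they cannot be set against a background.

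The members did not vary as 1 unit across the 19 libraries. On the log2(RPM + 1) scale the Pearson r between miR-467e and miR-467d was 0.87, and that between miR-669a-3p and miR-669m-5p was 0.91. In contrast, r was 0.43 between miR-669c and miR-669a-3p and 0.33 between miR-669c and miR-669a-5p, although all lie in the same intron. These values are descriptions over libraries that fall into 7 groups and share depth and scaling, and reads of similar sequence may be shared among members.

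The microRNAs outside the array whose pattern over the 19 libraries was most like its summed level were miR-451 (Pearson r = 0.874), miR-150 (0.865), miR-28 (0.857), miR-223 (0.846) and miR-322 (0.832). miR-451, a microRNA of red blood cells, averaged 2108 ± 279 RPM in Cerebellum and 2431 ± 1126 RPM in Neocortex, and 10.02 ± 2.08 RPM in Camk2a (SD, n = 3). miR-150, known from lymphocytes, averaged 455 ± 36.4 RPM in Cerebellum, 172 ± 30.03 RPM in Neocortex and 3.64 ± 1.42 RPM in Purkinje. All 5 were higher in whole tissue than in Camk2a, the group where the array was lowest. As they were chosen for this likeness, that order follows largely from the choice. The measure is a description over libraries in 7 groups.

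The look-alike miR-574-5p, whose sequence holds the longest UG run of those shown above, followed another order. It averaged 76.6 RPM in SST (76.5 and 76.6 RPM), 41.9 ± 5.15 RPM in Gad2, 16.3 ± 3.16 RPM in PV, 13.9 ± 8.11 RPM in Neocortex, 1.29 ± 0.621 RPM in Purkinje, 1.18 ± 1.22 RPM in Cerebellum and 0.512 ± 0.138 RPM in Camk2a. Cerebellum, where the array was highest, thus held miR-574-5p at 0 to 2.43 RPM, and SST held it at the highest level.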

How the data were processed

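Small RNA bound to Ago2 was sequenced on an Illumina Genome Analyzer II in 19 libraries, grouped by their titles into 7 groups. Reads were mapped with Bowtie to mm9, per the submitters' processing notes, and the version and the treatment of reads with several matches are not given in the sources used here. The deposited signal of 528 names was scaled by the authors to a common total: per the file headers it is per 1000000 reads, but each column added up to 10000000, and RPM here are the deposited values divided by 10. Whole reads, and so depth, were recovered from the steps of the values. Low values lay within 0.0051, on the deposited scale, of a whole number of steps.

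limma 3.58.1 in R 4.3.3, with a trend, was fitted to log2(RPM + 1) as 7 group means over all 19 libraries. Names with at least 1 RPM in 2 libraries were kept (478), with Benjamini-Hochberg adjustment over these names in each comparison and a call at an adjusted p under 0.05. The design asked for edgeR only if raw counts had been deposited. Folds are ratios of group means in RPM, while log2 changes include the pseudocount of 1 RPM and understate changes of rare members. Alternatives were pseudocounts of 0.1 and 10 RPM, no filter, TMM factors (0.759 to 1.53), edgeR 4.0.16 and DESeq2 1.42.0 on recovered reads, a replicate block, other ways of counting identical names, and leaving out each library. TMM scaling moved the median log2 change of all names by 0.22 in Cerebellum against Neocortex, 0.18 in Camk2a against Neocortex, 0.51 in PV against SST and 0.14 in Purkinje against Gad2, and by less than 0.1 in the other 3 comparisons.

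Values are shares of a library, so a change in an abundant name moves all others. The fit was tested on simulated data in which the changed names were under 2000 RPM, since with more abundant names changed the shares of unchanged names moved as well. Replicates differed by more than counting error (chi-square per degree of freedom 34.2 to 693 over 17 pairs), so none was merged. Members named by rule were the 8 of highest mean and, in each comparison, up to 4 called members in each direction. The latter were those with the largest log2 change and a mean of at least 1 RPM. Some of their values are given as ranges, for part of the groups or through a near-identical relative. The members miR-466b-3p and miR-297a, outside this rule, were chosen after their values were seen. Members, lists and tests were chosen with earlier results of these data known. Sums over members, arm shares and correlations are descriptions without a test.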

Additional observations from a re-analysis of the deposited data

Results flagged for a closer look

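The difference between a neuron class and its whole tissue was itself compared between cerebellum and neocortex, by a contrast on the same fit that was added after the values were seen. Each value is the log2 change of Purkinje against Cerebellum minus that of a neocortical class against Neocortex. It is listed for the members named by rule that passed. Against Gad2, the value was above 0 for miR-669c (1.51 ± 0.47 (SE), limma adjusted p = 0.00908), whose log2 change was 0.06 in Purkinje against Cerebellum and -1.45 in Gad2 against Neocortex. It was also above 0 for miR-297c (1.59 ± 0.50 (SE), limma adjusted p = 0.00924), whose log2 changes were 1.47 and -0.12. The changes of miR-669a-3p (-2.15 ± 0.49 (SE), limma adjusted p = 0.000646) and miR-669a-5p (-2.73 ± 0.45 (SE), limma adjusted p = 1.68e-05) were more negative in the cerebellum. The same held for miR-669p (-2.77 ± 0.45 (SE), limma adjusted p = 1.34e-05), miR-669m-5p (-1.33 ± 0.46 (SE), limma adjusted p = 0.0181) and miR-669b (-1.50 ± 0.47 (SE), limma adjusted p = 0.0095), of which miR-669p shares reads with miR-669a-5p and miR-669b with miR-669m-5p.

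Against Camk2a, the value was above 0 for miR-669c (2.41 ± 0.47 (SE), limma adjusted p = 0.000119), miR-467e (1.04 ± 0.42 (SE), limma adjusted p = 0.0433) and miR-297c (1.78 ± 0.50 (SE), limma adjusted p = 0.00393), whose log2 changes in Camk2a against Neocortex were -2.35, -1.67 and -0.31. In Purkinje against Cerebellum that of miR-467e was -0.63. The value was below 0 for miR-669a-5p (-1.61 ± 0.45 (SE), limma adjusted p = 0.00402) and miR-669p (-1.67 ± 0.45 (SE), limma adjusted p = 0.00295). The sixth, miR-466d-5p, was chosen after its values were seen (1.20 ± 0.42 (SE), limma adjusted p = 0.0182). miR-669c thus differed from both arms of miR-669a in the direction of this contrast against Gad2. Strain background and pooling differ between the classes and cannot be told apart from them.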

How the results depend on the processing

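Of 2457 alternative values of single named members, 2331 kept their direction and their side of the threshold, 28 were uncalled in both and changed sign, 46 lost the call, 52 gained one and 0 called values changed sign. The count of members called between Gad2 and Camk2a was 4, and 9 with edgeR and 10 with DESeq2. That between PV and SST was 0, and 4 with TMM scaling, 1 with edgeR, 1 with DESeq2 and 1 with the replicate block. Shares of all names called were not taken for these alternatives. Leaving out 1 library at a time gave 7 to 13 calls for Cerebellum against Neocortex, 16 to 22 for Purkinje against Cerebellum, 18 to 21 for Camk2a against Neocortex, 7 to 14 for Gad2 against Neocortex, 2 to 7 for Gad2 against Camk2a, 0 to 3 for PV against SST and 6 to 15 for Purkinje against Gad2. The summed level was 441 RPM in Cerebellum, 179.9 RPM in PV and 118 RPM in SST with TMM scaling, and 328, 137 and 147 RPM with near-identical members counted once, which is lower by construction. The cause of the other changes was not tested. Replicate numbers did not pair the libraries: over 52 pairs of same-numbered libraries the correlation of deviations ran from -0.292 to 0.342 (median 0.0339), and 8 of 19 libraries were nearest to one with their own number. With the replicate block the counts were 11, 21, 19, 11, 4, 1 and 11 in the order above. With near-identical members counted once, 27 were tested. Of these, 14 were lower and 1 higher in Purkinje against Cerebellum, 15 lower in Camk2a against Neocortex and 10 lower in Gad2 against Neocortex. In Gad2 against Camk2a 3 were higher, and in Purkinje against Gad2 6 were higher and 2 lower. Depth limits the rare members most, since 1 read was worth up to 0.813 RPM.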
